A study of Mus musculus with 2 samples.

Results

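The BK channel is a large-conductance potassium channel opened by membrane depolarisation and cytosolic calcium. Its pore-forming alpha subunit is encoded by Kcnma1, and its gating is tuned by beta subunits (here Kcnmb1, Kcnmb2 and Kcnmb4) and by gamma subunits such as Lrrc26. These 5 genes were represented by 7 of the 23521 probe sets that the platform annotation assigns to a single gene (22180 genes in all). They were taken as every probe set naming exactly 1 of the 5, with no collapsing of probe sets to genes, and were singled out because the 2 Kcnma1 probe sets moved in opposite directions. Their differences between diets are therefore given as a description.

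The series compared the colon of male ICR mice, an outbred stock, aged 7 weeks. The psyllium array carried RNA from animals given 10% psyllium, a gel-forming plant fibre, in their food for 5 days. The control array carried RNA from animals given the food without psyllium. All mice were labelled healthy, and neither the number of mice behind each array nor the layers of the colon wall that were taken is stated. With 1 array per diet there was no replicate, so no error, standard error or p-value can be attached to any difference.

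In smooth muscle, BK channels pass an outward potassium current that opposes depolarisation and contraction, and the beta 1 subunit, Kcnmb1, raises their apparent calcium sensitivity there. The beta 2 subunit, Kcnmb2, confers inactivation, and the beta 4 subunit, Kcnmb4, is known mainly from neurons. Lrrc26 lets the channel open at resting calcium in secretory epithelia, and in mouse colon it is known from goblet cells. BK channels of the colon epithelium are also a known route of potassium secretion into the lumen.

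The sequences upstream of Kcnma1, Kcnmb1 and Lrrc26 are shown because these are the 3 members with signal past the intensity filter described below. Each is the 250 bases before the annotated transcript start, 5′ to 3′ on the gene's own strand, from RefSeq (GRCm38.p6), and all 5 members had an entry. They lie at chr14:24004206-24004455 (minus strand), chr11:33962763-33963012 (plus strand) and chr2:25289661-25289910 (plus strand). Capitals mark matches on either strand to the GC box (GGGCGG) and the E box (CANNTG). The other motifs searched were the TATA box (TATAAA) and the CArG box, the binding motif of serum response factor.
Kcnma1: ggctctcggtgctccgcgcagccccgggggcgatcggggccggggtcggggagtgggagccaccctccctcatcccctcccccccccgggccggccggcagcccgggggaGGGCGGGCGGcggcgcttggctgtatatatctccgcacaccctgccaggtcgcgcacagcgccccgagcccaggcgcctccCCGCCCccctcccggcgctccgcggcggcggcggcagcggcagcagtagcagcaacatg
Kcnmb1: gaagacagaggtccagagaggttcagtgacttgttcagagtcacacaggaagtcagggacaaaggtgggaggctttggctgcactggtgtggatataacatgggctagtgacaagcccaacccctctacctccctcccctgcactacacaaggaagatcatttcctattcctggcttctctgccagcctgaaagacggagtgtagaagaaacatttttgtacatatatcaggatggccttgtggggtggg
Lrrc26: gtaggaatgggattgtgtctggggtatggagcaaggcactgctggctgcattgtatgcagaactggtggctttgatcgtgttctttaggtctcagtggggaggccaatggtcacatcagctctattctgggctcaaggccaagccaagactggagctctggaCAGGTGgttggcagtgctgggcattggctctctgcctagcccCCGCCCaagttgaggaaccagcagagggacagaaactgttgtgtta

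The 3 windows differ in composition. The Kcnma1 window was 79.2% G and C, a share reached by 1.56% of the 32851 promoter windows of this length in the table, and it held 3 GC boxes, a pair of them overlapping. The Kcnmb1 window was 50.8% G and C, close to the median of 52.4% over all windows, and held none of the 4 motifs. The Lrrc26 window was 54.8% G and C and held 1 GC box and 1 E box. A GC box was present in 32.7% of all windows, an E box in 66.2%, a TATA box in 12.4% and a CArG box in 1.47%. No TATA box or CArG box was found in these 3 windows, which says only that those letters are not in these bases.

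The deposited values are normalised intensities on a linear scale. Differences are given on the log2 scale, psyllium minus control. Dim probe sets were marked by a filter on the brighter of the 2 values, set at an intensity of 67.3, the median of that quantity over the probe sets naming 1 gene. It left 11761 of them, with a median difference of -0.04 and a standard deviation across probe sets of 0.33. Their log2 intensities correlated between the arrays, across probe sets, with Pearson's r = 0.97 (probe sets are not independent replicates). Of the colon markers 4 were measured, the goblet mucin Muc2, carbonic anhydrase 1 (Car1), Cdx1 and Cdx2, and all 4 were past the filter on an array. Of the 7 BK probe sets 4 were past it, covering Kcnma1, Kcnmb1 and Lrrc26.

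The 2 probe sets annotated to the pore gene gave contrary readings. Probe set 17304012 of Kcnma1 had an intensity of 528 on the psyllium array and 316 on the control array. It was thus 1.67-fold higher with psyllium, a log2 difference of 0.74. Probe set 17548705 of the same gene had an intensity of 24.8 on the psyllium array and 1014 on the control array. It was 40.9-fold lower with psyllium, a log2 difference of -5.35. Both values of the first probe set were past the filter's intensity, whereas the second was bright on the control array and below the filter on the psyllium array, so the size of its fold is uncertain. With the filter's intensity in place of the dim value, the fold would be 15.1. That intensity is not a detection limit, so 15.1 is an illustration and neither a bound nor a corrected fold. The annotation given here does not say which exons or transcripts of Kcnma1 either probe set matches. That both report Kcnma1 rests on this annotation alone and was not tested. With 1 array per diet, a fault of a single array cannot be told apart from a difference between diets.

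The beta 1 subunit was higher on the psyllium array, on the side of probe set 17304012. Kcnmb1 had an intensity of 344 on the psyllium array and 164 on the control array, a 2.09-fold difference (log2 difference 1.07). Its log2 difference exceeded that of Kcnma1 probe set 17304012 by 0.32. In bulk colon RNA, a different number of cells of a type and a different amount of RNA per cell cannot be told apart.

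The gamma subunit differed little. Lrrc26 had an intensity of 421 on the psyllium array and 457 on the control array. That is 1.08-fold lower with psyllium (log2 difference -0.12), and 36.3% of the probe sets past the filter had a difference as low or lower.

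The other beta subunits were dim on both arrays. Kcnmb2 had an intensity of 19.6 on the psyllium array and 17.1 on the control array (log2 difference 0.20). Kcnmb4 had 32.7 on the psyllium array and 33.3 on the control array by probe set 17245085 (log2 difference -0.03). By probe set 17237496 it had 29.6 on the psyllium array and 28.6 on the control array (log2 difference 0.05). All of these values lay below the filter's intensity, which is a median over probe sets and not a detection limit. The values do not show whether Kcnmb2 and Kcnmb4 were above background.

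**Figure D1:**
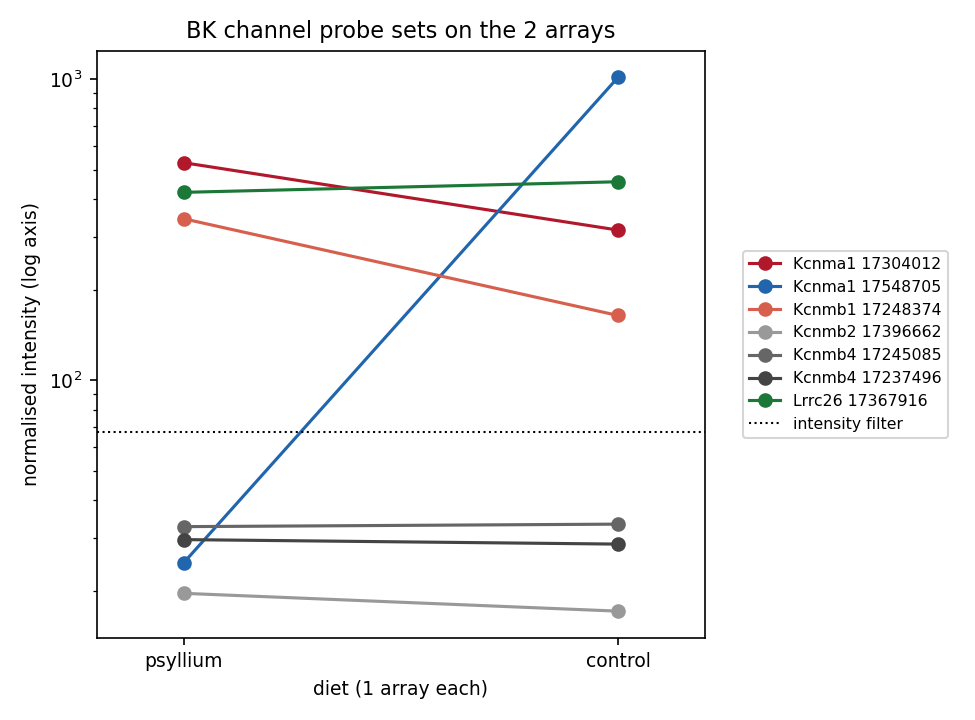
Normalised intensity (log axis) of the 7 BK channel probe sets on the psyllium array (left) and the control array (right), 1 array per diet, with a line joining the 2 values of a probe set and a dotted line at the filter's intensity of 67.3. Kcnma1 17304012 and Kcnmb1 are higher with psyllium, Kcnma1 17548705 lies at 24.8 on the psyllium array and at 1014 on the control array, Lrrc26 is nearly level, and Kcnmb2 and Kcnmb4 stay below the filter.

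At a threshold of 1.5-fold, 2 of the 7 BK probe sets were higher on the psyllium array and 1 was lower. Over all probe sets naming 1 gene, 3.43% were higher and 2.8% lower by as much. Among those past the filter the shares were 4.07% higher and 2.42% lower, and at 2-fold 1.02% higher and 0.519% lower. Since the members were chosen on these differences, their counts are not read against these shares.

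The position of each BK probe set among those past the filter was as follows. A difference as high as that of Kcnmb1 was reached by 104 of the 11761 (0.884%). One as high as that of Kcnma1 probe set 17304012 was reached by 271 (2.30%). These 2 probe sets lay in the upper part of the distribution, with others beyond them.

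Probe set 17548705, past the filter through the control array alone, had no neighbour in that distribution. Kcnma1 was chosen with this difference known, so its place there is a description. The probe set had the largest absolute difference of all 41345 probe sets on the arrays, named or not. The next lowest difference of any probe set was -3.74, from an unnamed one with an intensity of 1.76 on the psyllium array and 23.6 on the control array. Past the filter and among probe sets naming 1 gene, the next lowest was that of the carboxylesterase Ces2a at -2.90. The highest difference of any probe set was 3.16, also from an unnamed and dim one.

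**Figure D2:**
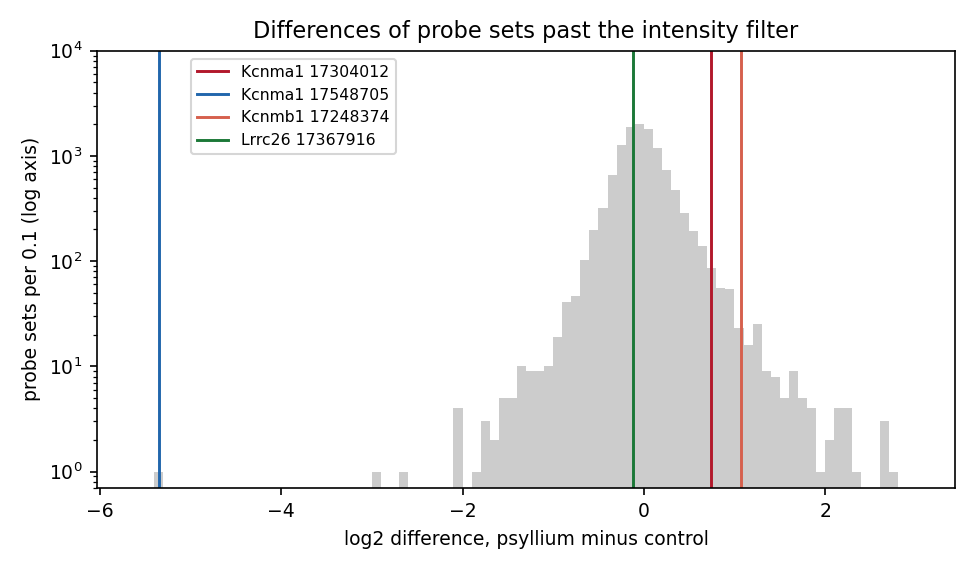
Number of probe sets naming 1 gene and past the intensity filter (11761, log axis) by log2 difference, psyllium minus control, in steps of 0.1, with vertical lines at the 4 BK channel probe sets past the filter. Lrrc26 lies in the bulk, Kcnma1 17304012 and Kcnmb1 in the upper part, and Kcnma1 17548705 at -5.35, apart from the next lowest at -2.90. Kcnma1 17548705 is past the filter through the control array alone.

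The 2 Kcnma1 probe sets lay further apart than those of any other gene with several probe sets. Their log2 differences were 6.10 apart, whereas the 2 single-gene Kcnmb4 probe sets, both dim, differed by -0.03 and 0.05. Over the 1082 genes with 2 or more probe sets the median distance between the highest and the lowest difference was 0.23, and 22 genes (2.03%) had a distance of at least 1. After Kcnma1 the widest was that of moesin, Msn, a linker of membrane and actin, at 2.47. One of the 2 probe sets of Msn was dim on both arrays, with an intensity of 6.90 on the psyllium array and 16.3 on the control array. Among the 345 genes with 2 or more probe sets past the filter, the median distance was 0.20 and the widest after Kcnma1 was that of immunoglobulin mu, Ighm, at 1.89 (both genes were named after their values were seen). In 4 of the 1082 genes, and in 1 of the 345, a probe set was at least 1.5-fold higher and another at least 1.5-fold lower, and that 1 gene was Kcnma1. Kcnma1 was chosen for this opposite movement, and its probe set 17548705 passed the filter through the control array alone, so its place in these counts was fixed by the choice and is a description. These distances compare probe sets on the same RNA and carry no information on the spread between animals. The mean of the 2 Kcnma1 log2 differences, -2.30, matches neither probe set, so a single value for the gene depends on which is used.

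**Figure D3:**
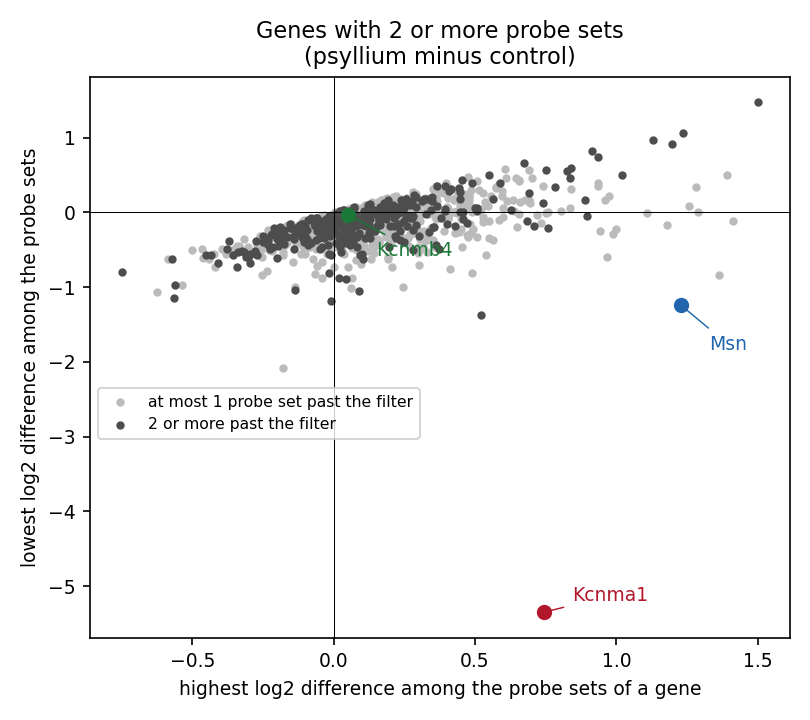
For each of the 1082 genes with 2 or more probe sets, the highest (horizontal axis) and lowest (vertical axis) log2 difference among its probe sets, psyllium minus control. Dark points are genes with 2 or more probe sets past the filter. Kcnma1 lies at 0.74 and -5.35, apart from all other genes, and Kcnmb4 lies near 0 on both axes.

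The contractile genes of smooth muscle, where Kcnma1 and Kcnmb1 are known to act together, were higher on the psyllium array. Kcnmb1 and Kcnma1 probe set 17304012 were higher there too, whereas Kcnma1 probe set 17548705 was lower (log2 difference -5.35). A difference of 1.5-fold or more was seen in 13 of 14 such genes, all of them higher with psyllium, against 3.42% higher and 2.8% lower over all 22180 genes. Their median difference was 1.26, against -0.0025 over all genes, and the sum of their intensities was 32228 on the psyllium array and 13448 on the control array. The enteric actin Actg2 was 4.42-fold higher, and the intermediate filament genes Synm and Des were 3.69-fold and 3.45-fold higher. Kcnmb1 and Kcnma1 probe set 17304012 lay within the range of these genes, which ran from 0.58 to 2.14. Of the 14, 7 had a larger difference than Kcnmb1 and 12 a larger one than Kcnma1 probe set 17304012. The part of muscle content in the BK values was not tested. Lists here and below were chosen with earlier results of these data known, so counts beside shares over all genes are a description.

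Genes that supply BK channels with calcium in muscle were mixed. The 17 measured genes of calcium entry and release had a median difference of 0.11, and the 3 that passed 1.5-fold were all higher. They were Jph2 (1.72-fold), which holds the plasma membrane close to the calcium store, the pore of the L-type calcium channel, Cacna1c (1.69-fold), and its accessory subunit Cacna2d1 (1.60-fold). Of the 6 measured genes of nitric oxide and cyclic GMP signalling, a pathway that relaxes muscle partly through BK channels, 1 was at least 1.5-fold higher. This was the cyclic GMP-dependent kinase Prkg1 (1.52-fold), and the median of the 6 was 0.36. Over all 22180 genes, 3.42% were at least 1.5-fold higher and 2.8% lower by as much.

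Other calcium-activated and related potassium channels had smaller differences than Kcnmb1 and either Kcnma1 probe set. The small and intermediate conductance channels had a median difference of 0.16, 0 of the 4 passed 1.5-fold, and Kcnn4 and Kcnn3 differed by 0.20 and 0.23. The BK auxiliary genes outside the 5 members, Kcnmb3, Lrrc38, Lrrc52 and Lrrc55, had a median of -0.06 and were below the filter on both arrays. So were the Slo family relatives Kcnt1, Kcnt2 and Kcnu1, with a median of 0.05 and 1 of 3 at least 1.5-fold lower. The share of all 22180 genes that were lower by as much was 2.8%.

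On the epithelial side, Lrrc26 was set beside goblet and pan-epithelial genes. The 8 goblet markers had a median difference of 0.29, and the 2 that passed 1.5-fold were both higher. These were the goblet cell regulator Spdef (1.90-fold) and the mucin chaperone Agr2 (log2 difference 0.59). All 8 goblet markers had positive differences, but these ran from 0.02 to 0.93, and that of Lrrc26 was -0.12. The standard deviation across probe sets past the filter was 0.33, so a contrast in sign between values near 0 is not read. All 9 pan-epithelial markers had negative differences around a median of -0.27, and 0 of them reached 1.5-fold. Epcam and Krt8 differed by -0.07 and -0.03. The difference of Lrrc26 thus lay between the medians of these lists, while the 8 absorptive colonocyte markers had a median of -1.06 and 5 of them were lower by 1.5-fold or more. Among all 22180 genes, 3.42% were higher and 2.8% lower by that fold.

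Genes of colonic potassium secretion and its response to aldosterone had a median of -0.01 with no settled sign, and 1 of 9 was past 1.5-fold. That 1 was the potassium channel Kcnk5, with an intensity of 252 on the psyllium array and 417 on the control array (1.65-fold lower with psyllium). As above, 2.8% of all genes were lower by 1.5-fold or more and 3.42% higher.

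Markers of other cells of the wall that could carry BK transcripts are given beside these values. For comparison, 3.42% of all 22180 genes were higher and 2.8% lower by 1.5-fold or more. Pericyte and vascular muscle markers had a median of 0.55, with 3 of 7 at least 1.5-fold higher: Mcam (2.17-fold), Cspg4 (2.07-fold) and Kcnj8 (1.95-fold). Of these 7 markers, 6 had positive differences and 1 a negative one, Pdgfrb (log2 difference -0.19). Interstitial cell markers went both ways, 3 of 5 positive and 2 negative, with a median difference of 0.32, a mean of 0.14 and 0 past 1.5-fold. Ano1, Kit and Pdgfra differed by 0.56, 0.38 and 0.32, and Etv1 and P2ry1 by -0.21 and -0.33. Enteric neuron markers had a median difference of -0.12, 0 of 9 passed 1.5-fold, and Snap25 and Syt1 differed by -0.52 and -0.12. The 3 measured glial markers were below the filter on both arrays with a median of 0. Endothelial markers had a median difference of -0.03, and 0 of 8 passed 1.5-fold. Macrophage markers had a median of 0.46 with 2 of 6 at least 1.5-fold higher, Mrc1 (2.33-fold) and Cd163 (1.71-fold). All 3 T cell markers were lower by more than 1.5-fold (median -0.87). Colon identity markers had a median difference of -0.33, and 0 of 4 passed 1.5-fold. No list had a difference near the -5.35 of Kcnma1 probe set 17548705, the lowest of any list gene being Ces2a at -2.90.

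**Figure D4:**
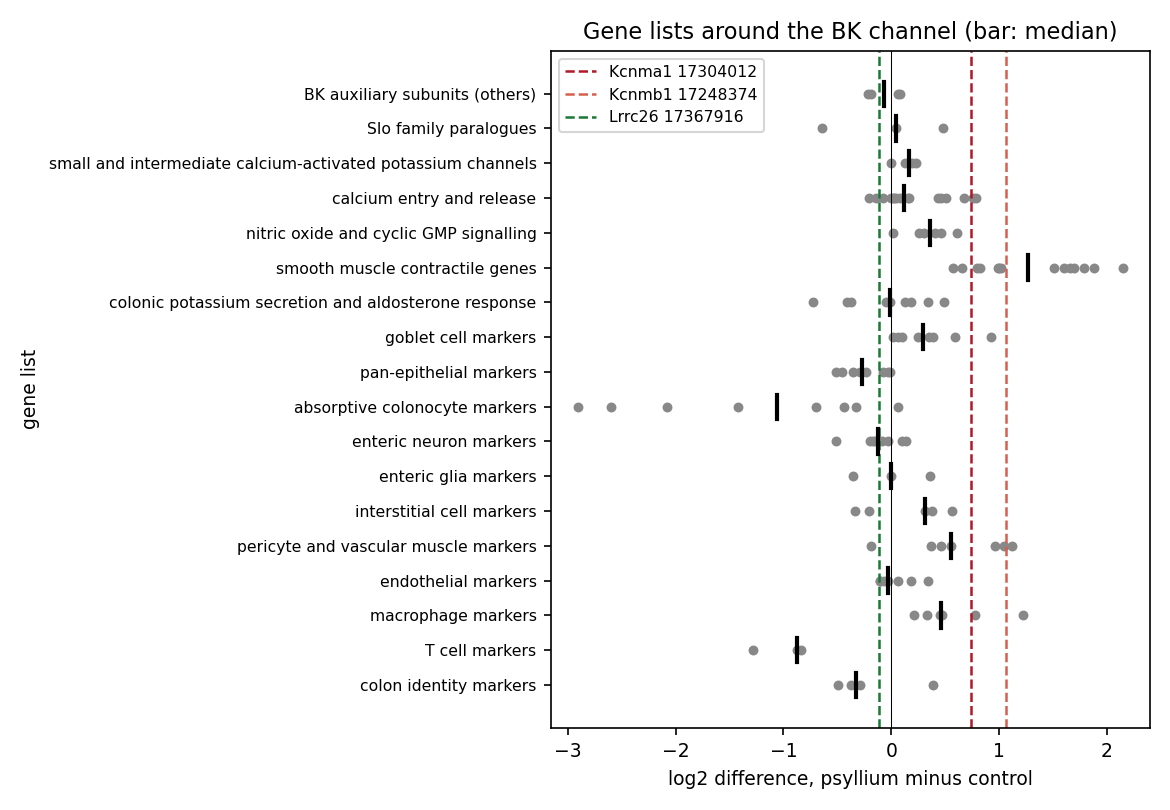
Log2 difference, psyllium minus control, of each measured gene (points) in 18 gene lists, with the list median as a black bar and dashed lines at Lrrc26, Kcnma1 probe set 17304012 and Kcnmb1. The Kcnma1 17304012 and Kcnmb1 lines cross the range of the smooth muscle list, and the Lrrc26 line lies between the pan-epithelial and goblet medians. Kcnma1 probe set 17548705, at -5.35, has no line.

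The genes of these lists whose difference was nearest to that of Kcnma1 probe set 17304012 (0.74) were Cacna1c, the macrophage receptor Cd163, Jph2 and the smooth muscle actin Acta2. Their log2 differences were 0.76, 0.78, 0.79 and 0.80. With 2 arrays, likeness means only an equal difference between them, and Cd163 lay below the filter's intensity on the control array.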

How the data were processed

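Biotin-labelled colon RNA was measured on whole-transcript arrays, per the labels' protocols. The deposited table holds 1 normalised intensity per probe set and array, on a linear scale. The submitters' processing notes list RMA and Affymetrix Expression Console, with neither version nor role. Whether the intensity is the antilogarithm of RMA's output, and the build used, are not given in the sources used here. If the arrays were equalised, differences are relative to the bulk of transcripts.

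Intensities were converted to log2 with no pseudocount, and differences are psyllium minus control. Gene names came from the platform annotation at GEO, with symbols updated by gene number from RefSeq (GRCm38.p6), which held 23328 of 23521. Another 1814 probe sets named several genes and 16010 none, and these stayed out of gene comparisons. For lists, the probe set with the highest mean log2 value stood for a gene, and no filter was applied. Of 134 genes in 18 lists 126 were measured. The genes named from a list were up to 3 past the filter, by size of difference, if that was 1.5-fold or more, or else up to 2 with the highest level, plus the 4 nearest to Kcnma1 in difference. Outside this rule, all measured members of the interstitial, colon identity, BK auxiliary and Slo family lists were named. Pdgfrb was also named, as the negative pericyte marker. Members and lists were chosen with earlier results of these data known. No test was run, since each diet has 1 array, and the number of arrays limits the precision. Simulated differences were used only to check the arithmetic, which returns them by construction, so they are no test of the results. Python 3.11.15, NumPy 2.4.6, pandas 2.3.3, statsmodels 0.14.6 and matplotlib 3.10.9 were used.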

Additional observations from a re-analysis of the deposited data

Results flagged for a closer look

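A probe set that names Kcnmb4 together with the antisense gene Kcnmb4os1 was outside the 7 BK probe sets, since it cannot be assigned to 1 gene. It had an intensity of 66.6 on the psyllium array and 49.7 on the control array, a log2 difference of 0.42 (1.34-fold higher with psyllium), and was too dim for the filter on either array. The 2 probe sets naming Kcnmb4 alone differed by -0.03 and 0.05.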

How the results depend on the processing

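The alternatives were further quantile normalisation, removal of the intensity trend, a pseudocount of 32, subtraction of the median difference, other filters and the mean of a gene's probe sets. The 7 BK probe sets kept their sign under each of the 4 that apply to them, with Kcnma1 17304012 between 0.69 and 0.80, Kcnmb1 between 0.94 and 1.12, and Lrrc26 between -0.113 and -0.0553. With the pseudocount, which by its construction shrinks differences of dim values, Kcnma1 17548705 moved to -4.20 and the distance between the Kcnma1 probe sets to 4.89, still the widest of any gene. The shares past 1.5-fold then were 2.58% higher and 1.61% lower. No called value changed sign. The median of the potassium secretion list ran from -0.029 to 0.032. For the lists, no filter is the setting already used. No paired analysis was possible because each diet has 1 array. Neither animal spread nor detection above background can be judged from these values.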
